A study of Mus musculus with 4 samples.

Results

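Cells of the mouse erythroblast line G1E that carry the GATA-1 2RA mutant were set against those that carry the GATA-1 V205M mutant by RNA-seq. The 805 genes described are all rows of the authors' deposited table for this pair, of 12931 genes tested (6.23%). The authors listed a gene when its adjusted p was below 0.01 and its level differed by more than 2-fold. Of the 805 genes, 466 were higher in 2RA (3.60% of the genes tested) and 339 were higher in V205M (2.62%).

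G1E cells come from an embryonic stem cell line without functional GATA-1, and every group described here carries that loss. The 4 groups were the line without added GATA-1 (G1E control) and the line given the normal factor (GATA-1 WT), GATA-1 V205M or GATA-1 2RA. All 4, the control included, carry the label of an induction with β-estradiol (spelled β-estrodiol there), with no time or dose. Each group is 1 sample, so no group has a replicate and no difference below was tested across samples. The labels give neither the vector and promoter that carry GATA-1 nor whether a group is a clone, and they do not say which residues 2RA changes.

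GATA-1 is a zinc finger transcription factor that binds GATA motifs in DNA and is needed for red cells, megakaryocytes, mast cells and eosinophils. Its N-terminal zinc finger contacts the cofactor FOG-1, the product of Zfpm1, and the V205M substitution in that finger is known to weaken this contact. In erythroid cells GATA-1 with FOG-1 turns on globin, heme and membrane genes and turns off Gata2 and Kit, and without this contact mast cell genes are known to stay active.

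The residue that V205M replaces lies in the following coding stretch of Gata1, shown so that the mutated site can be seen. It is read 5′ to 3′ from a GENCODE transcript, and the capitals mark the codon of that residue, GTG, which encodes the valine replaced in the mutant, in a reading frame of 413 codons.

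Gata1: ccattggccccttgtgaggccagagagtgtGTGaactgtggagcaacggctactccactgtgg

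To show the DNA near some genes of opposite direction, up to 250 bases before the start site of 4 members follow, with GATA motifs in capitals. Gp5 and P2rx1 were higher in 2RA, and Ms4a2 and Alas2 were higher in V205M. The sequences are RefSeq promoters on GRCm38, each read 5′ to 3′ on the gene's own strand, from chr16:30310782-30311031 on the minus strand, chr11:72998895-72999102 on the plus strand, chr19:11623720-11623969 on the minus strand and chrX:150547167-150547374 on the plus strand. For P2rx1 and Alas2, whose GENCODE exons begin before the RefSeq start site, the 208 bases before the exon are shown. The motif searched was GATAA or GATAG with an A or a T before it, on both strands, and a reverse complement such as TTATCT counts as a match.

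Gp5: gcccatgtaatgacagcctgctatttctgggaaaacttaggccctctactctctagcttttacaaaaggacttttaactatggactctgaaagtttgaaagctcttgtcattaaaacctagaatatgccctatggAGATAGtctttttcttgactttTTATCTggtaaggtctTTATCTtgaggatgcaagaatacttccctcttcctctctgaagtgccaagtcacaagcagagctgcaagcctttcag
P2rx1: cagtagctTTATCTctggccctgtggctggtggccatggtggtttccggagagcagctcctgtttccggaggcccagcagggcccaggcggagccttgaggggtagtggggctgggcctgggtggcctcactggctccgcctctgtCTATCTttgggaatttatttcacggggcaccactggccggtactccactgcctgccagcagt
Ms4a2: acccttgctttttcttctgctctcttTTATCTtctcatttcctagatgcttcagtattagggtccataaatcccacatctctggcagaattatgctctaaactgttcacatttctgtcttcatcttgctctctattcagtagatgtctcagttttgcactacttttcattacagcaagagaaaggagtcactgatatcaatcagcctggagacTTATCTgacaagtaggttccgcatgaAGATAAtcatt
Alas2: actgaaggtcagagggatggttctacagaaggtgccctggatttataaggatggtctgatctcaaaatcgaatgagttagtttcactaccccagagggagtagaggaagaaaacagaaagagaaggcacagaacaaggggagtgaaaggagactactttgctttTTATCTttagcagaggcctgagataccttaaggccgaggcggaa

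Gp5 held 3 matches, starting at -115, -93 and -77 from the start site, and P2rx1 held 2, at -242 and -104. Ms4a2 held 3 matches, at -224, -37 and -11, and Alas2 held 1, at -86. Both directions of change were present among these promoters. They were picked by name and not by a rule, and all of them hold a match, so they are not typical of the members. Of the 581 members with a promoter, 120 held a match (20.7%). In full windows of 250 bases, a match was found in 75 of 365 members higher in 2RA (20.5%), in 45 of 216 members higher in V205M (20.8%) and in 7322 of all 27025 promoters (27.1%). The set of all 27025 promoters includes genes that were not among those tested, so the lower shares of the members are not read as a result. The letters describe these windows only, and no binding was measured.

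Levels are given in scaled reads, which are read counts divided by a size factor for each count column. Scaled reads grow with transcript length, so they are compared between groups for 1 gene and not between genes. Where levels are summed over a list or genes are ranked by level, long transcripts weigh more. Such sums are compared between groups only. V205M was made of 2 count columns whose mean the authors deposited, and it is not known whether these are cultures or sequencing runs. G1E control was likewise a mean of 2 count columns, with unequal size factors of 1.17 and 0.357. GATA-1 WT and 2RA had 1 column each. Over the 805 genes, the recovered reads came to 383911 in 2RA and to 367828 and 312230 in the 2 columns of V205M. All 805 genes kept their direction in each V205M column, and 763 stayed above 2-fold in both, although these columns also entered the listing. The log2 ratio between these columns had an SD of 0.0988 over the 211 genes that reached 500 reads. Intervals beside a fold are 95% exact binomial intervals from the recovered reads, and they cover counting error only. The lowest count in every column was 1, and no source here says if 1 was added to each count. Levels that rest on 1 read per column, such as 0.714 in 2RA and 0.931 in V205M, are thus the lowest found. They may stand for fewer reads, so folds and intervals built on them are uncertain. Changes are given as log2 of the ratio of scaled reads plus 1, with 2RA over V205M.

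The changes were large in both directions. The median log2 change was 1.72 among the 466 genes higher in 2RA and -1.49 among the 339 higher in V205M. More than 4-fold differences were found for 189 genes higher in 2RA and 115 higher in V205M, and more than 16-fold differences for 53 and 49. A further 745 genes had a level in both mutants through other tables without being listed here, and their median log2 change was 0.03. Listed members of any gene group differ by more than 2-fold through the listing, so a median over them is read against 1.18 for all 805 genes, and one over all members with a level in both mutants against 0.15 for all 1550 such genes. The directions in a list are read against 466 of the 805 genes higher in 2RA, and its listed share against 6.23% of all genes tested. The lists were chosen with earlier results of these data known, so a high listed share may come in part from that choice. Some genes are on several lists, so the counts of different lists are not separate from each other. Close to the 2-fold limit, Rhag was listed at 1180.4 scaled reads in G1E control, 2197 in GATA-1 WT, 41.9 in V205M and 84.3 in 2RA, while Mob3a, at 1.996-fold, was not.

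**Figure D1:**
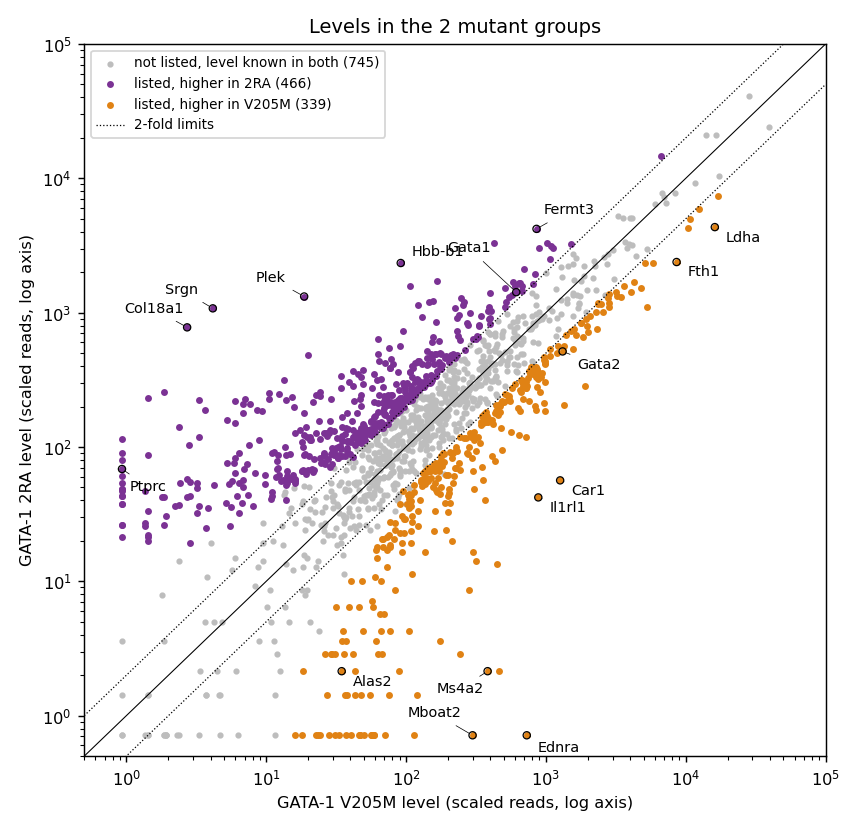
Level of each gene in GATA-1 V205M (horizontal, scaled reads, log axis) and GATA-1 2RA (vertical, scaled reads, log axis), with 1 point per gene. The 466 purple genes lie above the upper 2-fold line and the 339 orange genes below the lower one, while 745 genes known from other tables are grey; names mark genes described in the text.

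Gata1 itself differed between the mutants. Gata1 (chrX:7959260-7978071, minus strand) had 153 scaled reads in G1E control, 2652 in GATA-1 WT, 613 in V205M and 1421 in 2RA, so that 2RA stood 2.32-fold (2.16 to 2.49) above V205M and both stood between the control and GATA-1 WT. Whether these reads come from the introduced GATA-1 or from the disrupted gene cannot be told apart. Esr1, the gene of the estrogen receptor whose ligand-binding domain is used in estradiol-inducible GATA-1 fusions, had 13.3 scaled reads in V205M and 43.6 in 2RA, beside 1.83 in G1E control and 58.6 in GATA-1 WT, and was not listed. Gata1 and Esr1 reads were thus both higher in 2RA than in V205M, and the part of this in the differences below was not tested.

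Gata2, the GATA factor of early progenitors that GATA-1 normally shuts down, had 773 scaled reads in G1E control, 54.8 in GATA-1 WT, 1316 in V205M and 514 in 2RA. It was 2.56-fold (2.36 to 2.79) higher in V205M, which lay above the control, whereas 2RA lay below the control and above GATA-1 WT. Kit, the stem cell factor receptor, was not listed and had 1440.2 scaled reads in V205M and 2218 in 2RA, beside 2429 in G1E control and 179 in GATA-1 WT. For Gata2 and Kit both mutants thus stood nearer to the control than to GATA-1 WT on the log scale. Zfpm1 was not listed.

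The transcription factors and cofactors of the erythroid list had 13 of 71 names listed (18.3%), 10 higher in 2RA and 3 higher in V205M. Their median log2 change was 1.21, close to that of all listed genes. Over the 28 names with a level in both mutants, 18 were higher and 10 lower in 2RA, with a median of 0.72. Fli1, an ETS factor of megakaryocytes, had 36.4 scaled reads in G1E control, 89.4 in GATA-1 WT, 47.6 in V205M and 331 in 2RA. At 6.95-fold (5.65 to 8.77), 2RA stood above all 3 other groups. Tal1, a basic helix-loop-helix partner of GATA-1, had 627 scaled reads in G1E control, 341 in GATA-1 WT, 111 in V205M and 333 in 2RA, with V205M the lowest of the 4. Mllt3, a regulator of progenitor maintenance, had 359 scaled reads in 2RA and 107 in V205M, beside 144 in G1E control and 426 in GATA-1 WT. Cbfa2t3, the corepressor ETO2, had 14.96 scaled reads in V205M and 57.9 in 2RA. Bcl11a, a repressor of fetal globin genes, had 114 scaled reads in V205M and 264 in 2RA, beside 262 in G1E control. Nfe2, a subunit of a dimer that binds globin control regions and platelet genes, had 238 scaled reads in 2RA and 109 in V205M, beside 381 in G1E control and 528 in GATA-1 WT. Klf6 and E2f8 were also higher in 2RA, by 1.65 and 1.51 on the log2 scale, and Ikzf1, near the limit, by 1.01. On the other side, Gfi1b, a repressor needed for red cells and platelets, had 972 scaled reads in G1E control, 1568 in GATA-1 WT, 966 in V205M and 470.1 in 2RA, with the lowest of the 4 in 2RA. E2f4, a cell cycle factor, had 1067 scaled reads in V205M and 477 in 2RA, beside 477 in GATA-1 WT, and with Gata2 it completed the 3 members higher in V205M. Klf1, the erythroid Krüppel-like factor, was not listed, with 382 scaled reads in V205M and 381 in 2RA. Myb, a progenitor factor, was not listed either, with 408 scaled reads in V205M and 406 in 2RA.

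Megakaryocyte genes were higher in 2RA. Of 43 names, 12 were listed (27.9%, against 6.23% of all genes tested), 11 of them higher in 2RA and only Gfi1b higher in V205M, with a median log2 change of 2.76. This list, like the others, was chosen with earlier results of these data known. No other name had a level in both mutants. Plek, which encodes pleckstrin, the main protein kinase C substrate of platelets, had 237 scaled reads in G1E control, 368 in GATA-1 WT, 18.7 in V205M and 1319 in 2RA, with 22.3 and 15.02 in the 2 V205M columns. The difference was 70.6-fold (51.1 to 97.2), and V205M was the lowest group and 2RA the highest. P2rx1, an ATP-gated channel of platelets, had 52.2 scaled reads in G1E control, 3.15 in GATA-1 WT, 7.66 in V205M and 209 in 2RA, a 27.2-fold (16.3 to 46.2) difference. P2ry1, the ADP receptor that starts platelet shape change, had 104 scaled reads in 2RA and 7.59 in V205M, beside 27.3 in G1E control and 94.5 in GATA-1 WT. Both purine receptors were thus highest in 2RA, while GATA-1 WT lay under the control for P2rx1 and above it for P2ry1.

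The adhesion machinery of platelets followed the same direction. Gp5, a subunit of the von Willebrand factor receptor complex, had 5.94 scaled reads in V205M and 63.6 in 2RA, beside 29.4 in G1E control. Itgb3, the β3 integrin subunit, had 12.2 scaled reads in V205M and 87.2 in 2RA, beside 7.62 in G1E control. Fermt3, the kindlin that activates integrins in blood cells, had 154 scaled reads in G1E control, 3099 in GATA-1 WT, 857 in V205M and 4204 in 2RA, and its 4.91-fold (4.65 to 5.17) difference rested on more reads than most. Fermt3 was high in GATA-1 WT as well as in 2RA, in contrast to P2rx1 and Lat. Lat, an adaptor of collagen receptor signalling, had 19.8 scaled reads in G1E control, 0.6298 in GATA-1 WT, 2.72 in V205M and 57.9 in 2RA. Meis1, a homeobox factor of stem cells and megakaryocytes, had 276 scaled reads in 2RA and 57.2 in V205M, beside 15.4 in G1E control and 17.6 in GATA-1 WT. Nbeal2, needed for platelet α-granules, had 114 scaled reads in 2RA and 47.6 in V205M, beside 136 in G1E control and 27.7 in GATA-1 WT. Of the 10 listed members with a level in all 4 groups, 7 were highest in 2RA, 2 in GATA-1 WT and 1 in the control. Summed over the 12 members, the level was 2139 scaled reads in V205M and 7474 in 2RA, of which Fermt3 made up 857 and 4204. Gfi1b made up another large part in V205M, so the sums mostly follow a few genes. Another 28 names on this list, among them Pf4, Itga2b and Gp1ba, had no level among the listed genes of any pair. In bulk RNA, more cells of a type and more RNA per cell cannot be told apart.

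Mast cell genes split. Of 38 names, 8 were listed (21.1%), 3 higher in 2RA and 5 higher in V205M, with a median log2 change of -1.79. Over the 14 names with a level in both mutants, 5 were higher and 9 lower in 2RA, with a median of -1.08. Ms4a2, the β-chain of the high-affinity IgE receptor (chr19:11615523-11623719, minus strand), had 140.0 scaled reads in G1E control, 0.6298 in GATA-1 WT, 383 in V205M and 2.14 in 2RA, with 365 and 401 in the 2 V205M columns. It was 179-fold (60.7 to 865) higher in V205M, and only 3 reads stood behind the 2RA level. Il1rl1, the receptor for interleukin 33, had 163 scaled reads in G1E control, 11.3 in GATA-1 WT, 882 in V205M and 42.2 in 2RA, a 20.9-fold (16.1 to 27.6) difference. Both receptors were highest in V205M, intermediate in the control and low in 2RA and GATA-1 WT.

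Proteins stored in or made for mast cell granules showed both directions. Tpsab1, a tryptase, had 55.1 scaled reads in G1E control, 0.6298 in GATA-1 WT, 474 in V205M and 139 in 2RA. Hdc, which makes histamine, had 29.5 scaled reads in G1E control, 1.89 in GATA-1 WT, 121 in V205M and 33.6 in 2RA. Ndst2, which sulfates heparin, had 2124 scaled reads in G1E control, 134 in GATA-1 WT, 1339 in V205M and 204 in 2RA, so that here the control exceeded V205M. Against these, Srgn, the serglycin core protein of granule proteoglycans (chr10:62493833-62527451, minus strand), had 69.6 scaled reads in G1E control, 215 in GATA-1 WT, 4.15 in V205M and 1077 in 2RA. At 259-fold (136 to 567), it had one of the largest differences of the 805 genes and the opposite sign to Tpsab1, Hdc and Ndst2. Alox5, the first enzyme of leukotriene synthesis, had 136 scaled reads in 2RA and 38.6 in V205M, beside 152 in G1E control and 1.89 in GATA-1 WT. Alox5ap, which presents its substrate, had 128 scaled reads in 2RA and 22.8 in V205M, beside 79.98 in G1E control and 27.1 in GATA-1 WT. Srgn is also made by platelets and myeloid cells, and Alox5 by myeloid cells. All 8 listed members also differed when GATA-1 WT was compared with the control, 7 of them lower in GATA-1 WT and Srgn higher. Over these 14 names, the summed level was 4803 scaled reads in V205M and 4135 in 2RA, of which Kit made up a large part. Cpa3, a mast cell protease, was not listed and had 14.6 scaled reads in V205M and 5.001 in 2RA.

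Genes shared by granulocytes, macrophages and other white cells stood higher in 2RA. Of 41 names on the neutrophil and macrophage list, 7 were listed (17.1%) and all 7 were higher in 2RA, with a median log2 change of 2.92. Ptprc, the leukocyte phosphatase CD45, had 3.23 scaled reads in G1E control, 0.6298 in GATA-1 WT, 0.931 in V205M and 68.6 in 2RA, a 73.7-fold (19.97 to 621) difference with 2 reads in V205M. Nckap1l, the blood cell subunit of the WAVE actin regulator, had 8.48 scaled reads in G1E control, 13.9 in GATA-1 WT, 5.94 in V205M and 220.0 in 2RA. Itgb2, the β2 integrin subunit of leukocytes, had 47.3 scaled reads in G1E control, 428 in GATA-1 WT, 95.3 in V205M and 729 in 2RA. Lyn, a Src family kinase, had 17.9 scaled reads in G1E control, 66.8 in GATA-1 WT, 49.2 in V205M and 294 in 2RA. Ptprc and Nckap1l were low in all 3 other groups, while Itgb2 and Lyn also exceeded the control in GATA-1 WT. Dok2, an inhibitory adaptor, had 229 scaled reads in 2RA and 10.4 in V205M, beside 79.9 in G1E control and 6.93 in GATA-1 WT. Laptm5, a lysosomal protein of blood cells, had 3013 scaled reads in 2RA and 1133 in V205M, beside 1263 in G1E control and 448 in GATA-1 WT. Coro1a, an actin regulator, had 109 scaled reads in 2RA and 40.5 in V205M, beside 110.2 in G1E control and 8.82 in GATA-1 WT. Defining genes of the lineage such as Mpo, Elane and Csf1r had no level among the listed genes, as held for 33 of the 41 names. On the eosinophil and basophil list, Cd200r3 and Il4 were listed of 15 names (13.3%), both higher in 2RA, with log2 changes of 2.48 and 1.38. The lymphocyte list had 1 of 25 names listed, Blnk, a share of 4% against 6.23% of all genes tested. Blnk, a B cell adaptor, had 1.83 scaled reads in G1E control, 0.6298 in GATA-1 WT, 0.931 in V205M and 115 in 2RA. The endothelial list had 1 of 18 (5.56%), Egfl7, with 8.79 scaled reads in G1E control, 183 in GATA-1 WT, 109 in V205M and 36.4 in 2RA, and no name of the stromal list was listed. Whether other cells contributed reads was not tested.

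For the globins, 2 of 15 names were listed (13.3%), both higher in 2RA. Hbb-b1, an adult β-globin gene, had 238 scaled reads in G1E control, 39108 in GATA-1 WT, 91.6 in V205M and 2342 in 2RA, with 91.1 and 92.2 in the 2 V205M columns. At 25.6-fold (22.1 to 29.7), 2RA stood above the control but far under GATA-1 WT, and V205M lay under the control. Hbb-b2, its near-identical neighbour, had 35.5 scaled reads in G1E control, 4362 in GATA-1 WT, 19.3 in V205M and 141 in 2RA, and reads may be split between these copies. Its log2 change of 2.81 became 2.37 and 3.45 with V205M column 1 or 2 alone. The α-globin gene Hba-a1 was not listed, with 38.9 scaled reads in V205M and 32.9 in 2RA.

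Heme synthesis genes had 3 of 27 names listed (11.1%), 2 higher in 2RA and 1 higher in V205M. Of the 16 with a level in both mutants, 10 were higher in 2RA, with a median log2 change of 0.47. Alas2, the first and rate-limiting enzyme of erythroid heme synthesis (chrX:150547375-150570638, plus strand), had 6.54 scaled reads in G1E control, 1154 in GATA-1 WT, 34.7 in V205M and 2.14 in 2RA. It was 16.2-fold (5.404 to 81.3) higher in V205M, with 3 reads in 2RA, and both mutants lay far under GATA-1 WT. Alad, the next enzyme, had 132 scaled reads in G1E control, 510.2 in GATA-1 WT, 42.2 in V205M and 221 in 2RA. Abcb10, a mitochondrial transporter that stabilises iron import, had 89.6 scaled reads in G1E control, 3195 in GATA-1 WT, 272 in V205M and 844 in 2RA. Alas2 and Alad thus had opposite signs between the mutants, although GATA-1 WT was the highest group for both.

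The red cell membrane list had 12 of 47 names listed (25.5%), 6 in each direction, with a median log2 change of -0.07. The even split held for listed members only: over the 22 names with a level in both mutants, 15 were higher and 7 lower in 2RA, and the median turned to 0.51. Cldn13, a claudin of mouse erythroid cells, had 21.7 scaled reads in G1E control, 2109 in GATA-1 WT, 367 in V205M and 40.01 in 2RA. Add2, the β-adducin that caps spectrin junctions, had 116 scaled reads in G1E control, 925 in GATA-1 WT, 65.8 in V205M and 4.29 in 2RA. Kel, a blood group protease, had 23.6 scaled reads in 2RA and 109 in V205M, beside 45.2 in G1E control and 148 in GATA-1 WT. Stom, the membrane protein stomatin, had 85.02 scaled reads in 2RA and 415 in V205M, beside 94.1 in G1E control and 714 in GATA-1 WT. In these 4 genes GATA-1 WT was the highest group, and 2RA lay under the control except for Cldn13. Ermap, a blood group membrane protein, ran the other way, with 1611 scaled reads in G1E control, 8087 in GATA-1 WT, 889 in V205M and 3033 in 2RA. Spnb1, the erythroid β-spectrin, had 78.5 scaled reads in G1E control, 1217 in GATA-1 WT, 576 in V205M and 1349 in 2RA, and 2RA reached the level of GATA-1 WT. Rhd, a Rhesus protein, had 85.7 scaled reads in 2RA and 34.6 in V205M, beside 83.2 in G1E control and 193 in GATA-1 WT. In contrast, Rhag, the Rhesus-associated ammonium channel, was low in both mutants and passed the limit narrowly. Of the 12 listed members, 10 were highest in GATA-1 WT and 10 were also listed with higher levels when GATA-1 WT was set against the control.

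Other genes of red cell maturation had 16 of 55 names listed (29.1%), 12 higher in 2RA and 4 higher in V205M, with a median log2 change of 1.29. Over the 33 names with a level in both mutants, 19 were higher and 14 lower in 2RA, and the median was 0.43. Car1, a carbonic anhydrase of red cells, had 1562 scaled reads in G1E control, 1097 in GATA-1 WT, 1264 in V205M and 56.4 in 2RA, a 22.4-fold (17.96 to 28.5) difference, and 2RA stood apart from the 3 other groups. Prdx6, a peroxiredoxin, had 1290.2 scaled reads in G1E control, 3661 in GATA-1 WT, 5251 in V205M and 1103 in 2RA, highest in V205M. Fam46c, a poly(A) polymerase of maturing red cells, had 101 scaled reads in G1E control, 619.7 in GATA-1 WT, 75.2 in V205M and 549 in 2RA. Ube2l6, an ISG15-conjugating enzyme, had 957 scaled reads in 2RA and 239.7 in V205M, beside 48.2 in G1E control and 1484 in GATA-1 WT. Bcl2l1, the survival factor Bcl-xL, had 438 scaled reads in 2RA and 121 in V205M, beside 97.1 in G1E control and 411 in GATA-1 WT. Epor, the erythropoietin receptor, had 85.4 scaled reads in V205M and 181 in 2RA, beside 186 in GATA-1 WT. Hemgn, a nuclear protein of erythroid cells, had 75.01 scaled reads in 2RA and 29.8 in V205M, beside 119 in G1E control and 744 in GATA-1 WT, with both mutants under the control.

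Iron genes had 3 of 33 names listed (9.09%). Fth1, the ferritin heavy chain that stores iron, had 13492 scaled reads in G1E control, 2890.3 in GATA-1 WT, 8597 in V205M and 2382 in 2RA, a 3.61-fold (3.49 to 3.76) difference. Tfrc, the transferrin receptor that brings iron in, had 1145 scaled reads in G1E control, 4018 in GATA-1 WT, 3451 in V205M and 1306 in 2RA. Steap3, the ferrireductase of the same endosomes, had 1352 scaled reads in G1E control, 1509.7 in GATA-1 WT, 408 in V205M and 1032 in 2RA. For Fth1 the level in 2RA was close to that in GATA-1 WT, while for Tfrc it was V205M that was close to GATA-1 WT.

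**Figure D2:**
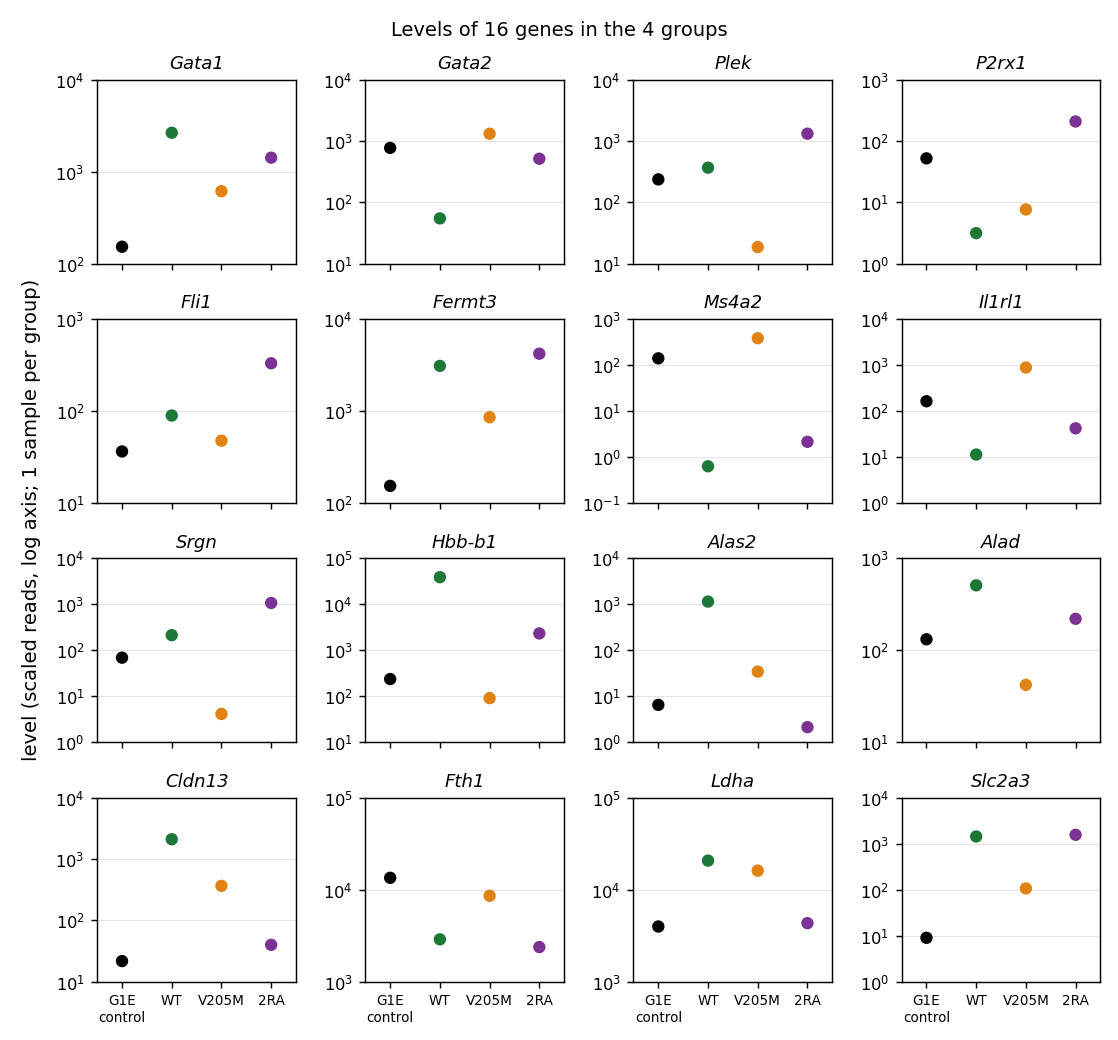
Levels of 16 genes in the 4 groups (vertical, scaled reads, log axis with its own range in each panel). Each point is the single sample of a group, so there are no error bars. Points of G1E control and V205M are means of 2 count columns. V205M is highest for Ms4a2 and Il1rl1, 2RA is highest for Plek, P2rx1, Fli1 and Srgn, and GATA-1 WT is highest for Hbb-b1, Alas2 and Cldn13.

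Glycolysis and hypoxia genes were mostly higher in V205M. Of 50 names, 14 were listed (28.0%), 11 higher in V205M and 3 higher in 2RA, with a median log2 change of -1.51. Over the 24 names with a level in both mutants, 19 were higher in V205M and 5 in 2RA, with a median of -0.98. Ldha, which turns pyruvate into lactate, had 3987 scaled reads in G1E control, 20748 in GATA-1 WT, 16141 in V205M and 4333 in 2RA, a 3.73-fold (3.63 to 3.83) difference with 16293 and 15989 in the 2 V205M columns. Pkm2, the pyruvate kinase, had 2056 scaled reads in G1E control, 4904 in GATA-1 WT, 4754 in V205M and 1518 in 2RA. Pfkm, a phosphofructokinase, had 22.5 scaled reads in G1E control, 265 in GATA-1 WT, 485 in V205M and 95.7 in 2RA. Hk2, an inducible hexokinase, had 336 scaled reads in V205M and 106 in 2RA, beside 42.4 in G1E control. For Ldha and Pkm2, V205M lay near GATA-1 WT and 2RA near the control.

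The middle steps of the pathway had the same sign. Tpi1, the triose isomerase, had 305 scaled reads in 2RA and 726 in V205M, beside 299.7 in G1E control and 981 in GATA-1 WT. Pgk1 and Pgam1, which carry the next steps, had log2 changes of -1.40 and -1.63. Pdk1, which restrains entry of pyruvate into the mitochondria, had a log2 change of -1.93. Bnip3, a hypoxia-induced mitophagy receptor, had 30.7 scaled reads in 2RA and 111 in V205M, beside 35.7 in G1E control and 759.6 in GATA-1 WT. Slc2a1, the basal glucose transporter, had 67.9 scaled reads in 2RA and 150.1 in V205M, beside 59.4 in G1E control and 306 in GATA-1 WT. Aldoa, the aldolase, was not listed, with 39198 scaled reads in V205M and 24099.6 in 2RA. Eno1, the enolase, was not listed either, with 5271 scaled reads in V205M and 2986 in 2RA. Against this direction, Slc2a3, the high-affinity glucose transporter, had 9.02 scaled reads in G1E control, 1440.4 in GATA-1 WT, 107 in V205M and 1568 in 2RA, a 14.6-fold (12.7 to 16.7) difference. Hk1, the constitutive hexokinase, had 397 scaled reads in V205M and 911 in 2RA, beside 322 in G1E control. Plod1, a collagen lysyl hydroxylase, was the third member higher in 2RA, at a log2 change of 3.12. The 2 glucose transporters thus had opposite signs. Of the 14 listed members, 10 were also listed for GATA-1 WT against the control, all of them higher in GATA-1 WT. Several of these genes have processed copies in the genome, and reads shared with such copies are uncertain.

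Cytokine receptors and their signalling proteins had 13 of 69 names listed (18.8%), 11 higher in 2RA and 2 higher in V205M, with a median log2 change of 1.77. Over the 20 names with a level in both mutants, 17 were higher in 2RA, with a median of 1.18. Dok2 and Lyn were also counted on the neutrophil and macrophage list, and Il1rl1 on the mast cell list. Il4ra, the interleukin 4 receptor chain, had 32.8 scaled reads in G1E control, 9.45 in GATA-1 WT, 5.94 in V205M and 151 in 2RA. Its log2 change of 4.45 became 6.35 and 3.66 with V205M column 1 or 2 alone. Il9r, the interleukin 9 receptor, had 115 scaled reads in 2RA and 24.1 in V205M, beside 34.1 in G1E control and 122 in GATA-1 WT. Csf2rb2, a β-chain of the interleukin 3 receptor, had 240.0 scaled reads in G1E control, 538 in GATA-1 WT, 1015 in V205M and 3306 in 2RA, a 3.26-fold (3.09 to 3.43) difference. Tgfbr1, the type 1 receptor for TGF-β, had 206 scaled reads in 2RA and 83.5 in V205M, beside 94.8 in G1E control and 62.98 in GATA-1 WT. Among the signal carriers, Pim1, a kinase induced by STAT5, had 142 scaled reads in G1E control, 556 in GATA-1 WT, 49.2 in V205M and 373 in 2RA. Cish, a feedback inhibitor of the same pathway, had 25.7 scaled reads in V205M and 90.02 in 2RA. Il1rl1 and Stat3 were the 2 members higher in V205M, and Stat3, a cytokine-activated transcription factor, had 141 scaled reads in G1E control, 76.2 in GATA-1 WT, 244 in V205M and 67.2 in 2RA.

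Integrin, adhesion and actin genes made up the largest listed group, with 22 of 74 names (29.7%), 17 higher in 2RA and 5 higher in V205M, and a median log2 change of 1.85. Over the 28 names with a level in both mutants, 22 were higher in 2RA, with a median of 1.28. This list shares members with others and was also chosen with earlier results known. Of the 17, Plek, Itgb3 and Fermt3 were also counted as megakaryocyte genes. Nckap1l, Itgb2 and Coro1a were also counted on the neutrophil and macrophage list. Add2 and Cldn13 were also counted on the red cell membrane list. Gsn, which severs and caps actin filaments, had 9.45 scaled reads in G1E control, 7.56 in GATA-1 WT, 3.65 in V205M and 187 in 2RA. Zyx, a focal adhesion protein, had 43.3 scaled reads in G1E control, 13.9 in GATA-1 WT, 13.9 in V205M and 222 in 2RA. Icam1, a ligand of leukocyte integrins, had 14.4 scaled reads in G1E control, 8.82 in GATA-1 WT, 6.01 in V205M and 82.2 in 2RA. Itgb7, an integrin subunit of lymphocytes and mast cells, had 26.2 scaled reads in G1E control, 33.4 in GATA-1 WT, 7.09 in V205M and 228 in 2RA. Gsn, Zyx, Icam1 and Itgb7 were highest in 2RA. Smaller differences were found for Tln1, Tagln2, Vim, Rac2 and Flna, with log2 changes of 1.39, 1.35, 1.22, 1.21 and 1.12. The 5 members higher in V205M were Gja6, Jub, Add2, Cldn13 and Cd44. Gja6, a connexin, had 1.83 scaled reads in G1E control, 61.1 in GATA-1 WT, 243 in V205M and 2.86 in 2RA. Jub, a LIM protein of cell junctions, had 3.54 scaled reads in G1E control, 7.56 in GATA-1 WT, 106 in V205M and 4.29 in 2RA. Cd44, the hyaluronan receptor, had 289.9 scaled reads in G1E control, 174 in GATA-1 WT, 873 in V205M and 321 in 2RA. Of the 19 listed members with a level in all 4 groups, 11 were highest in 2RA.

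Cell cycle genes had 6 of 50 names listed (12%), 5 higher in 2RA. The D-type cyclins Ccnd1 and Ccnd3, which open the G1 phase, were among them. Ccnd1 had 3.11 scaled reads in G1E control, 0.6298 in GATA-1 WT, 2.43 in V205M and 54.3 in 2RA, and its log2 change of 4.01 became 4.89 and 3.47 with V205M column 1 or 2 alone. Ccnd3, the cyclin of late erythroid divisions, had 347 scaled reads in G1E control, 1705 in GATA-1 WT, 64.3 in V205M and 440.1 in 2RA. Cdk6, their kinase partner, had 218 scaled reads in 2RA and 83.3 in V205M, beside 224 in G1E control and 40.3 in GATA-1 WT. Ccne1, a cyclin of S phase entry, was the 1 member higher in V205M, with 35.4 scaled reads in G1E control, 257 in GATA-1 WT, 68.1 in V205M and 20.7 in 2RA. Rbl1 was the single listed name of 27 on the growth arrest list, at a log2 change of 1.33, a share of 3.70% against 6.23% of all genes tested.

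The remaining lists held few members. Immediate early and stress genes had 6 of 42 names listed (14.3%), 5 higher in 2RA, among them Jun and Zfp36. Jun, a subunit of AP-1, had 5.796 scaled reads in G1E control, 33.4 in GATA-1 WT, 26.1 in V205M and 126 in 2RA. Zfp36, which destabilises inflammatory mRNAs, had 5.44 scaled reads in V205M and 52.9 in 2RA, beside 37.9 in G1E control. Zfp36l1, a relative of Zfp36, was higher in V205M, at a log2 change of -1.17, and Zfp36l2 was higher in 2RA, at a log2 change of 1.49. Autophagy and lysosome genes had 6 of 43 listed (13.95%), 3 in each direction. Ctsl, a lysosomal protease, had 9.99 scaled reads in G1E control, 169 in GATA-1 WT, 41.4 in V205M and 2.86 in 2RA. In contrast, Lamp2, a lysosomal membrane protein, had 396 scaled reads in V205M and 1403 in 2RA. Stem and progenitor genes had 6 of 45 listed (13.3%), 4 higher in 2RA, a split close to that of all listed genes. Interferon genes had 2 of 36 listed, Ifit2 and B2m, both higher in 2RA, and this share of 5.56% was close to the 6.23% of all genes tested. B2m, the light chain of MHC class I, had 627 scaled reads in G1E control, 437 in GATA-1 WT, 154 in V205M and 605 in 2RA. Cholesterol and fatty acid genes had 4 of 54 listed (7.41%, also close to that share), 2 in each direction, with Insig1, a sterol-regulated brake on cholesterol synthesis, at 0.931 scaled reads in V205M and 42.9 in 2RA, beside 0.6298 in GATA-1 WT. Solute carriers had 5 of 43 listed (11.6%), 3 higher in 2RA, a split close to that of all listed genes. Slc46a3 was higher in 2RA, at a log2 change of 1.85, and Slc26a1, a sulfate transporter, was higher in V205M, at a log2 change of -2.19. No replication-dependent histone or mitochondrially encoded gene was listed.

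**Figure D3:**
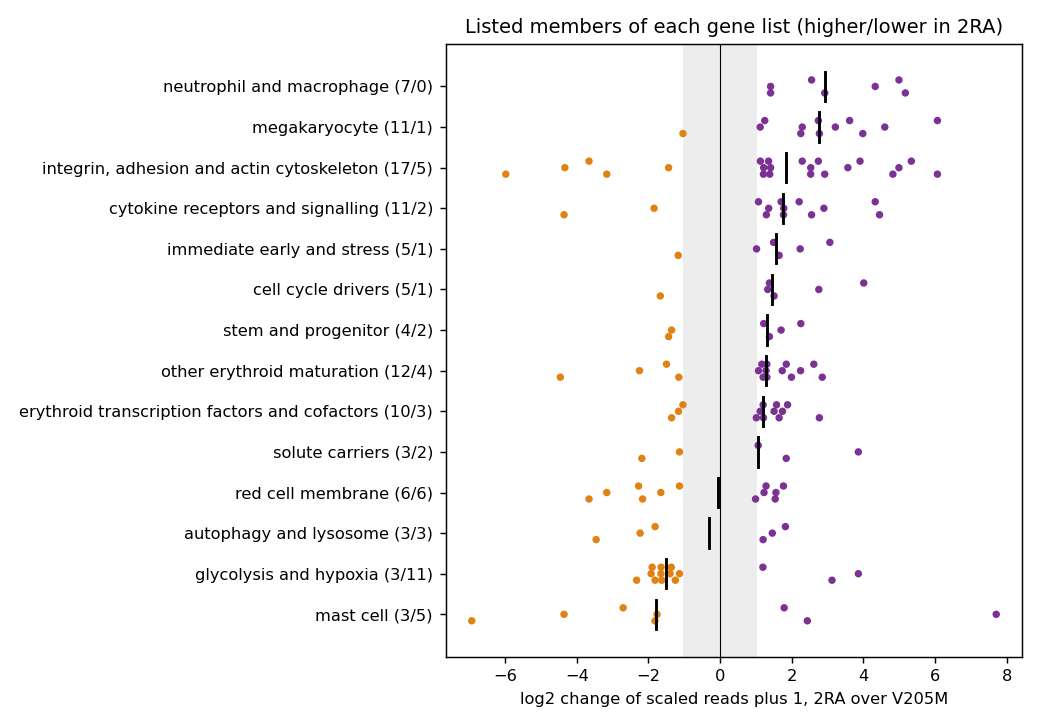
Log2 change of scaled reads plus 1, 2RA over V205M (horizontal), for each listed member of the 14 gene lists with 5 or more listed members; bars mark the medians, and the grey band spans log2 changes from -1 to 1. Numbers after each name give the members higher and lower in 2RA, from 7 and 0 for neutrophil and macrophage genes to 3 and 5 for mast cell genes.

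Among the genes with the largest changes, most were low in 1 of the mutants. Col18a1, a collagen whose end fragment is endostatin (chr10:77052178-77166548, minus strand), had 66.6 scaled reads in G1E control, 321 in GATA-1 WT, 2.72 in V205M and 777 in 2RA, a 286-fold (128 to 765) difference on 6 reads in V205M. Fgl2, a membrane prothrombinase of macrophages and T cells, had 1.83 scaled reads in G1E control, 3.15 in GATA-1 WT, 1.43 in V205M and 233 in 2RA. Cited1, a CBP/p300-binding coactivator, had 86.1 scaled reads in G1E control, 0.6298 in GATA-1 WT, 1.86 in V205M and 257 in 2RA. Gnb4, a G protein β subunit, had 7.62 scaled reads in G1E control, 41.6 in GATA-1 WT, 3.29 in V205M and 224 in 2RA. Col18a1 and Gnb4 exceeded the control in GATA-1 WT, and Cited1 did not. Cpz, a carboxypeptidase that binds Wnt proteins, had 140.0 scaled reads in 2RA and 2.36 in V205M, beside 27.9 in G1E control and 13.2 in GATA-1 WT. Agpat3, an acyltransferase of phospholipid synthesis, had 80.02 scaled reads in 2RA and 0.931 in V205M, beside 23.6 in G1E control and 22.04 in GATA-1 WT. Dock2, a Rac activator of blood cells, had 87.9 scaled reads in 2RA and 1.43 in V205M, beside 6.45 in G1E control and 30.2 in GATA-1 WT. Rnf157, a ubiquitin ligase, was at 60.7 scaled reads in 2RA, with 2 reads in V205M, and Gm3604, a predicted gene, at a log2 change of 5.56, also with 2 reads.

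On the V205M side, Ednra, the endothelin A receptor (chr8:77663031-77724464, minus strand), had 72.2 scaled reads in G1E control, 0.6298 in GATA-1 WT, 729.6 in V205M and 0.714 in 2RA, with 698 and 761 in the 2 V205M columns. The difference was 1021-fold (182 to 40227), with 1 read in 2RA. Both 0.714 in 2RA and 0.6298 in GATA-1 WT are the lowest levels found in these groups, at 1 read. The size of this fold and its interval are therefore uncertain. Mboat2, a lysophospholipid acyltransferase, had 5.68 scaled reads in G1E control, 123 in GATA-1 WT, 299 in V205M and 0.714 in 2RA. Ddc, which makes dopamine and serotonin from their amino acid precursors, had 8.37 scaled reads in G1E control, 2.52 in GATA-1 WT, 465 in V205M and 2.14 in 2RA, a 217-fold (74.2 to 1057) difference. 1700042O10Rik, which lies within Ddc on the opposite strand, had 1.43 scaled reads in 2RA and 119 in V205M, beside 4.08 in G1E control and 1.26 in GATA-1 WT. No source here says if the counting used strand, so reads of this pair cannot be told apart. Ddc and Ednra were at 3 and 1 reads in 2RA and at low levels in GATA-1 WT, whereas Mboat2 was present in GATA-1 WT.

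Some of the remaining large differences concern glycans and membranes. Ggta1, which adds the α-galactose epitope, had 12.9 scaled reads in G1E control, 64.9 in GATA-1 WT, 113 in V205M and 0.714 in 2RA. Cmah, which makes N-glycolylneuraminic acid, had 1.83 scaled reads in G1E control, 3.15 in GATA-1 WT, 70.7 in V205M and 0.714 in 2RA. Rbfox2, a splicing regulator, had 9.99 scaled reads in G1E control, 2.52 in GATA-1 WT, 175 in V205M and 3.57 in 2RA. Ehf, an epithelial ETS factor, had 3.23 scaled reads in G1E control, 1.26 in GATA-1 WT, 59.3 in V205M and 0.714 in 2RA. Rab11fip5, Myadm, Top1mt, Cd109 and Dock9 had log2 changes from -5.13 to -4.99, with 1 read in 2RA except for 2 reads in Dock9. In 37 members the 2RA level rested on 1 to 3 reads, and in 25 members the V205M level did, and their folds are correspondingly imprecise.

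The listed genes with the highest levels included several of general cell function. Hspd1, the mitochondrial chaperonin, had 3778 scaled reads in G1E control, 4431 in GATA-1 WT, 10297 in V205M and 4304 in 2RA. Cnbp, a nucleic acid-binding protein of translation, had 10775 scaled reads in V205M and 4942 in 2RA, beside 3747 in G1E control. Gnb2l1, the ribosomal scaffold RACK1, had 12382 scaled reads in V205M and 5948 in 2RA. Gm12141, Gm8730 and Rpl15-ps2 were also among the 10 listed genes with the highest levels, at log2 changes of -1.20, -1.32 and -1.11, and such predicted genes and copies may hold reads of their parent genes.

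To ask whether the mutants differ in genes that wild-type GATA-1 moves, the pair of GATA-1 WT and the G1E control was used, which shares no sample with the mutants. This table lists 1685 of 12931 genes (13.0%), 1057 higher in GATA-1 WT (8.17%) and 628 lower (4.86%). Of the 805 genes, 306 were also listed there, 38.0% of the 805 and 18.2% of the 1685. Of the 466 genes higher in 2RA, 120 were listed there as higher in GATA-1 WT and 68 as lower. Of the 339 higher in V205M, 63 were higher in GATA-1 WT and 55 were lower. The share higher in GATA-1 WT was 63.8% of the shared genes on the 2RA side and 53.4% on the V205M side, against 62.7% of all genes that differed between GATA-1 WT and the control.

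Each of the 4 combinations has clear examples. Hbb-b1, Slc2a3, Fermt3 and Abcb10 exceeded the control in GATA-1 WT and were higher in 2RA than in V205M. Alas2, Cldn13, Ldha and Mboat2 were higher in GATA-1 WT and higher in V205M. Ms4a2, Il1rl1, Gata2, Fth1 and Ednra were lower in GATA-1 WT and lower in 2RA. Cited1, P2rx1, Lat, Dok2 and Alox5 were lower in GATA-1 WT and higher in 2RA.

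**Figure D4:**
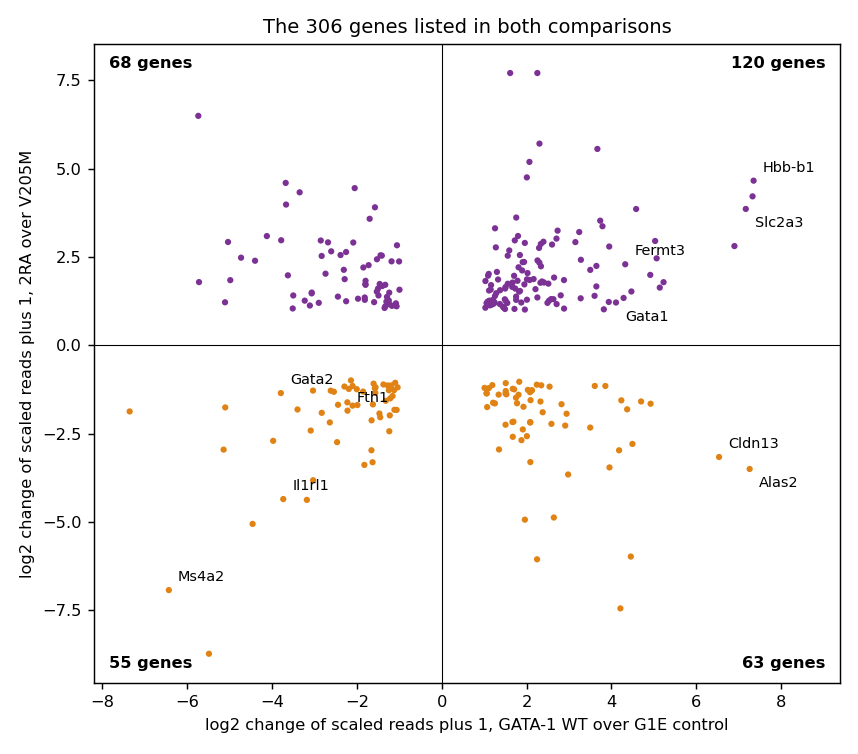
Log2 change of scaled reads plus 1 for GATA-1 WT over G1E control (horizontal) and 2RA over V205M (vertical), for the 306 genes listed in both comparisons, with 1 point per gene. All 4 quadrants are filled, with 120, 68, 63 and 55 genes, and no point lies near 0 because both listings require a 2-fold difference.

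Levels in all 4 groups were known for 530 of the 805 genes. Of the 318 higher in 2RA, the 2RA level was the highest of the 4 in 195 (61.3%) and V205M was the lowest in 156 (49.1%). Of the 212 higher in V205M, the V205M level was the highest in 123 (58.0%) and 2RA was the lowest in 103 (48.6%). Plek, Srgn, Il1rl1 and Prdx6 are examples in which a mutant lay outside the range spanned by the control and GATA-1 WT. On the log scale, the control level was nearer to 2RA in 129 of the 318 genes and in 118 of the 212. The GATA-1 WT level was nearer to 2RA in 162 of the 318 and in 111 of the 212. These counts follow in part from how the genes were listed, since a gene enters only where the mutants differ. Where the mutants are picked to differ, the higher one is often the highest of the 4 groups for that reason alone. No expected share was computed, so these shares are not read as a result.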

How the data were processed

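Total RNA of the 4 samples, 1 per group, went into TruSeq RNA libraries, per the labels' protocols. The mm10 build with TopHat, Cuffdiff, Cufflinks and deepTools is named in the submitters' processing notes, without versions. The signal the authors deposited is a group's mean of reads divided by a size factor. Whole reads were recovered from it for 100.0% of the values, within a relative tolerance of 2e-09, with 2 count columns in V205M and 1 in 2RA, while 9 V205M genes allowed several solutions. The lowest count was 1 in every column, and no source here says if 1 was added to each count. The ratio (fold) and the log2 value the authors deposited compare the 2 group means, and the p-value the authors deposited was adjusted over 12931 genes and used only as their listing limit, since no source here names its test.

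From these levels, log2 changes were computed with a pseudocount of 1 scaled read, and exact 95% intervals (Clopper-Pearson) from pooled reads, with pandas 2.3.3 and scipy 1.17.1. Sequencing depth per sample is known only as the sum of reads over listed genes. PCR reads carry no molecular identifiers, so intervals cover counting error only. Named genes were the 15 largest changes per direction among genes that reached 20 scaled reads in either group, Gata1, Esr1, Zfpm1, Gata2 and Kit, up to 8 members of each of 26 gene lists, the 10 genes with the highest levels and the 5 nearest to the 2-fold limit per direction. Other list members appear where a count is split into its genes. The genes and lists were chosen with earlier results of these data known. Alternatives included other pseudocounts, limits and scalings, each V205M column alone, and edgeR 4.0.16's exact test with an assumed coefficient of variation. That test compares libraries and not conditions, and it was tried on data simulated with the same assumed coefficient. Coordinates are from GENCODE on GRCm38, where 732 of the 805 symbols were found, and promoters matched 581. Some genes that the rule names are not reported here.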

Additional observations from a re-analysis of the deposited data

Results flagged for a closer look

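Setting each mutant against the G1E control, the authors' deposited tables list 18 of the genes picked by the naming rule in opposite directions, one mutant above the control and the other below. Another 18 such picked genes, Lat and Gp5 among them, had levels more than 2-fold above the control in one mutant and more than 2-fold below it in the other, on the scale of scaled reads plus 1, but were not listed in both tables. With 1 sample per group this difference was not tested, and both changes share the control sample. The naming rule picked many of these genes by the size of the difference between the mutants, which favours wide gaps. No expected count was computed for genes picked this way, and the counts in this section are not read as a result.

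In 13 of the 18 listed in both tables, 2RA was above the control and V205M below it. The log2 changes against the control, first for 2RA and then for V205M, were 3.53 and -4.18 for Col18a1, 3.93 and -3.78 for Srgn, and 1.57 and -4.93 for Cited1. They were 2.47 and -3.59 for Plek, 2.29 and -3.10 for Cpz, and 3.07 and -1.75 for Itgb7. Hbb-b1 had 3.29 and -1.37, P2rx1 had 1.98 and -2.62, and Il4ra had 2.17 and -2.28, where the V205M value rests on 2 count columns at 0.859 and 11.02 scaled reads. Dok2 had 1.51 and -2.82, Zyx had 2.33 and -1.57, P2ry1 had 1.90 and -1.72, and Pim1 had 1.38 and -1.51. Of the 13, Plek, P2rx1 and P2ry1 belong to the megakaryocyte list, and Il4ra, Dok2 and Pim1 to the cytokine receptor and signalling list.

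In the other 5 of these 18, 2RA was below the control and V205M above it. The log2 changes were -5.42 and 3.32 for Ednra, -5.49 and 1.45 for Ms4a2, -3.02 and 3.04 for Ggta1, -3.58 and 1.51 for Top1mt, and -1.93 and 2.43 for Il1rl1. Ms4a2 and Il1rl1 are receptors of mast cells. Ednra, Ggta1 and Top1mt rested on 1 read in 2RA and Ms4a2 on 3 reads.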

How the results depend on the processing

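The counts of 466 genes higher and 339 lower in 2RA moved with the limits. They were 269 and 163 above 3-fold, 189 and 115 above 4-fold, and 83 and 55 in edgeR's exact test with an assumed coefficient of variation of 0.4. With 0.2 they were 359 and 235. Limits of 10 or 50 scaled reads, an adjusted p below 0.001, and rescaling kept both counts within 1.5 times. All these counts were taken within the listed genes, so they could only fall. The edgeR test was also adjusted over the 1550 genes with a level in both mutants and not over all genes tested. Rescaling so that the median change over 1550 genes was 0 shifted log2 changes by -0.15 and left 414 and 339 genes above 2-fold. Because it lowered every 2RA level, the 339 could not change. None of the 145 listed genes named changed sign, but this was close to fixed in advance. A pseudocount cannot change a sign, the rescaling shift is small beside a 2-fold difference, and both V205M columns had entered the listing. Their values moved beyond the counting interval in 25 genes with a pseudocount of 10, in 29 with rescaling, and in 2 and 3 with V205M column 1 or 2 alone. A column alone moved the fold by over 1.5 times in 3 of them, Il4ra, Ccnd1 and Hbb-b2.

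Medians of lists moved when members with levels in both mutants but not listed were added, to -1.08 for mast cell, 0.47 for heme synthesis, -0.15 for iron handling, 0.43 for other erythroid maturation, 0.72 for erythroid transcription factors, 0.54 for stem and progenitor, 1.18 for cytokine receptors, 0.60 for cell cycle, 0.83 for immediate early, -0.98 for glycolysis, 0.33 for solute carriers and 1.28 for integrin and actin genes. The red cell membrane median turned from -0.07 to 0.51. The cholesterol median turned from 0.08 to -0.15, and to -0.14 with a pseudocount of 10, which also lowered the megakaryocyte median to 2.24. The added members had smaller changes by the construction of the list.

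Above 4-fold in both tables, the genes shared with the response to GATA-1 WT fell to 31, 20, 17 and 12 in the order in which they were given. Those with 10 or more scaled reads in both tables remained 120, 68, 63 and 55. Counts of genes whose control or GATA-1 WT level was nearer to 2RA stayed within 1.5 times under alternatives chosen after seeing the data. No paired analysis was possible because each group has 1 sample, which also leaves no replicate to omit. Depth limits the genes with 1 to 3 reads in a mutant.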

Other observations

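Several groups of genes were noticed only after the values were seen, so their direction was fixed by how they were picked and supports nothing. Signalling proteins of blood cells stood higher in 2RA, 20 genes with a median log2 change of 2.96. Btk, a Tec family kinase, had 105 scaled reads in G1E control, 95.7 in GATA-1 WT, 63.4 in V205M and 497 in 2RA. Lcp2, the adaptor SLP-76, had 79.01 scaled reads in G1E control, 10.1 in GATA-1 WT, 34.5 in V205M and 276 in 2RA. Pik3cg, a lipid kinase of blood cells, had 27.7 scaled reads in G1E control, 25.8 in GATA-1 WT, 21.7 in V205M and 216 in 2RA. For Btk, Lcp2 and Pik3cg, 2RA was the highest of the 4 groups. Lipid mediator genes were higher in 2RA too, 7 genes with a median of 3.87, among them Cnr2, the cannabinoid receptor of blood cells, with 43.6 scaled reads in G1E control, 58.6 in GATA-1 WT, 13.5 in V205M and 314 in 2RA. Ptgir, the prostacyclin receptor, had 26.2 scaled reads in G1E control, 11.97 in GATA-1 WT, 3.29 in V205M and 118 in 2RA.

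Genes of epithelial junctions and epithelial transcription factors were higher in V205M, 10 genes with a median log2 change of -4.14. Grhl2, a grainyhead factor that maintains epithelia, had 23.4 scaled reads in G1E control, 20.2 in GATA-1 WT, 300.0 in V205M and 16.4 in 2RA. Its level was highest in V205M. Pkp2, a desmosome protein, had a log2 change of -3.34.

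All 13 listed genes with a ribosomal protein symbol were higher in V205M, of 23 such symbols in any table, with log2 changes from -1.63 to -1.05. Rpl19 had 2486 scaled reads in V205M and 1155 in 2RA, beside 2692 in GATA-1 WT. Rplp0 had 2817 scaled reads in V205M and 1184 in 2RA, beside 2519 in GATA-1 WT. For Rplp0, the 2RA level was lower than those of V205M and GATA-1 WT. Some picked genes of ribosome assembly, Gnl3, Rrs1, Mak16, Emg1, Ddx51 and Rrn3, were also higher in V205M, 6 genes with a median of -1.24. Predicted genes and copies stood on the same side, since 70 of the 85 members with such symbols were higher in V205M. By annotated type, 57 pseudogenes were higher in V205M and 8 in 2RA. Reads shared between ribosomal protein genes and their copies are uncertain.

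Over all members, 466 of 805 were higher in 2RA. The chromosomes that follow were picked because they lay farthest from this share, and whether directions were spread unevenly was not tested. On chromosome 17, 39 of 49 members were higher in 2RA, and 28 further genes there with a level in both mutants that were not listed had a median log2 change of 0.58, against 0.03 for all such genes. On chromosome 4, 50 of 62 members were higher in 2RA, while the median of 45 genes not listed was 0.06. On chromosome 6, 14 of 40 members were higher in 2RA, and the median of 34 genes not listed was -0.33. Among Hox genes, Hoxc10 had 1.83 scaled reads in G1E control, 1.26 in GATA-1 WT, 2.79 in V205M and 104 in 2RA, while Hoxc4, Hoxc5 and Hoxb13 were higher in V205M, with log2 changes of -1.91, -1.93 and -1.59. Hoxc5 had 148 scaled reads in G1E control, 52.9 in GATA-1 WT, 175 in V205M and 45.01 in 2RA, and its annotated span overlaps that of Hoxc10.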
